A study of Homo sapiens with 4 samples.

Results

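The S100 proteins are small calcium-binding proteins of vertebrates, and the 10 genes described here are S100A8, S100A9, S100A12, S100A4, S100A6, S100A10, S100A11, S100A13, S100P and S100Z. They were taken by symbol: each is the only gene its array feature is annotated with, and each had a single such feature among the 17687 genes measured. In the RefSeq gene table (GRCh38.p14) 8 of the 10 lie on chromosome 1, S100P lies on chromosome 4 and S100Z on chromosome 5. The cells were NB4-R4, derived from the NB4 line of acute promyelocytic leukaemia and resistant to all-trans retinoic acid. They were cultured for 96 h either with the vehicle DMSO or with 4 µM MK-8776, an inhibitor of the checkpoint kinase CHK1, and both groups carry whatever alterations the line has. Total RNA from live cells was hybridised to 4 Affymetrix expression arrays, 2 for each group, called biological replicates by the submitters. The line is 1 subclone, so the arrays repeat the treatment and not the genetic background, and a p-value here is set against the variation among these cultures only.

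Most S100 proteins work as dimers that open a binding surface when calcium enters their EF-hand loops and then hold a partner such as an annexin or a cytoskeletal protein. S100A8 and S100A9 form calprotectin, the main cytosolic protein of neutrophils and a marker of maturing myeloid cells, which binds zinc and manganese away from microbes and, once released, signals through TLR4 and the receptor RAGE. S100A12, made by human granulocytes, is grouped with them as a calgranulin. The calprotectin genes are switched on as granulocytes and monocytes mature.

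After MK-8776 the S100 family genes did not move as one. The calprotectin genes S100A8 and S100A9 rose 19.4-fold and 18.6-fold, S100P and S100A11 rose 2.35-fold and 2.23-fold, and the other 6 did not pass the test. Values are RMA expression on the log2 scale, a change is the MK-8776 mean minus the DMSO mean of 2 arrays each, and a gene is said to have risen or fallen where its limma p, adjusted over all genes, was under 0.05. In all, 4 of the 10 members rose, where 1.66% of all genes did, and 0 fell, where 2.02% of all genes did. Both MK-8776 arrays lay above both DMSO arrays for 6 members (24% of all genes) and below both for 1 member (24.2% of all genes). The median change of the 10 was 0.76, beside 0.01 over all genes, and 8 were higher and 2 lower after MK-8776. In RNA from a whole culture, fewer cells of a type and less RNA per cell cannot be told apart, and the same holds for more.

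**Figure D1:**
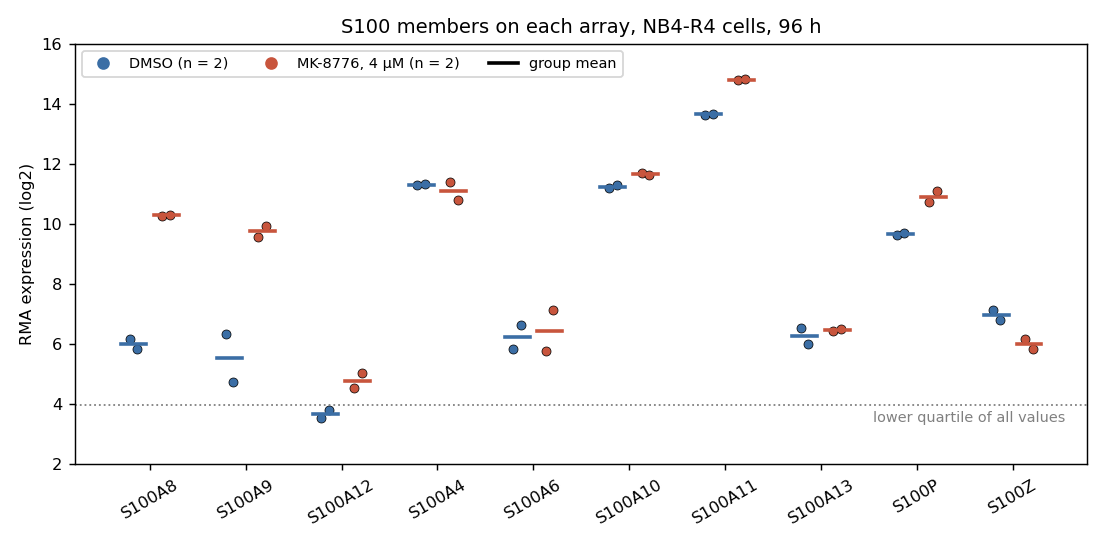
RMA expression (log2) of each S100 member on each array. Points are arrays, blue for DMSO and red for MK-8776, short bars are group means of 2 arrays, and the dotted line is the lower quartile of all values (3.97). S100A8 and S100A9 stand between 4.74 and 6.36 in DMSO and between 9.58 and 10.30 after MK-8776, while the points of S100A4, S100A6 and S100A13 overlap.

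S100A8 (chromosome 1, 153390032 to 153422583) encodes the smaller calprotectin subunit. It measured 6.18 and 5.85 on the DMSO arrays and 10.28 and 10.30 on the MK-8776 arrays. The MK-8776 arrays were nearly the same and lay far above both controls. The group means were 6.02 ± 0.23 and 10.29 ± 0.01 (SD, n = 2), a rise of 4.28 (SE 0.22, 95% interval 3.78 to 4.77, limma adjusted p = 0.000170). It was the 5th largest rise of all genes.

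S100A9 (chromosome 1, 153357854 to 153361023) encodes the larger subunit, which stabilises S100A8. Its values were 6.36 and 4.74 in DMSO and 9.58 and 9.95 after MK-8776. The groups did not overlap, but the DMSO arrays stood further apart than the arrays of any other member's group. The means of 5.55 ± 1.15 and 9.77 ± 0.26 (SD, n = 2) differed by 4.22 (SE 0.45, 95% interval 3.17 to 5.26, limma adjusted p = 0.00458), the 7th largest rise.

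The calls on calprotectin depended on the number of arrays. Without 1 DMSO array the adjusted p of S100A8 was 0.133 (replicate 1 left out) or 0.251 (replicate 2 left out), and without 1 MK-8776 array it was 0.0306 or 0.0325. For S100A9 no such fit passed, with adjusted p from 0.0941 to 0.275 and a rise of 3.41 to 5.03. Every one of these fits kept both rises above 3.

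The pair was also compared directly. S100A8 minus S100A9 within an array was -0.18 and 1.11 in DMSO and 0.70 and 0.35 after MK-8776, differences between probes that are no measure of relative abundance. The mean moved by 0.06, well inside the spread of the DMSO arrays, with an exact two-sided permutation p of 1 where 0.33 is the smallest that 4 arrays allow. Leaving out 1 array put this difference anywhere from -0.59 (without DMSO replicate 1) to 0.71 (without DMSO replicate 2), so the data set only wide bounds on how alike the rises were.

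The letters just before the transcription start are shown for S100A8, S100A9, S100A11 and S100P, which rose. Beside them stand S100A12, which fell just short of the threshold (limma adjusted p = 0.0505), and S100A4, which did not pass. A part of these letters in the changes was not tested. The stretches run from 32 to 3 bases before a RefSeq start (GRCh38.p14), 5′ to 3′ on the gene's strand, with the TATA box letters TATAAA in capitals. They lie at chr1:153391076-153391105 (minus strand, S100A8), chr1:153357822-153357851 (plus, S100A9), chr1:153375624-153375653 (minus, S100A12), chr1:152037007-152037036 (minus, S100A11), chr4:6693846-6693875 (plus, S100P) and chr1:153545809-153545838 (minus, S100A4).
S100A8: cgcTATAAAaaggagctgcctctcagccct
S100A9: gccTATAAAtgccgagcctgcacagctctg
S100A12: ggctaagatgaagcctgaactgatTATAAA
S100A11: tgggcaaggctgggccgggaagggcgtggg
S100P: gcctTATAAAgcaccaagaggctgccagtg
S100A4: gTATAAAtaggtcagacctctgggccgtcc
S100A8 has 3 listed starts, and the stretch shown belongs to the one with TATAAA closest to it, chosen for that reason. For another start the letters lie 126 bases away, and the window of the remaining start holds none. The letters begin 29 bases before the start in S100A9 and before that start of S100A8, 28 before it in S100P, 31 in S100A4 and 8 in S100A12. The S100A11 stretch holds none.

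A wider search took the 250 bases before each start, 14 starts for the 10 members, and both strands. TATAAA occurred in 8 of the 14 windows, from 7 members, and in 10.7% of the 35114 windows of all genes. The C/EBP motif TTNNGNAA, for the factors that drive granulocyte maturation, also occurred in 8 of the 14 windows, from 7 members, and in 33.2% of all windows. GAGGAA, the core bound by the myeloid factor PU.1, was found in 4 of the 14, from S100A8, S100A9 and S100Z, and in 23.6% of all windows. The antioxidant response element TGACNNNGC occurred in 1 window of S100A13 alone (10.9% of all windows), the AP-1 motif TGANTCA for S100A12 alone (6.57%), and the HIF motif ACGTG for S100Z alone (18.5%), where it shares 1 base with TATAAA. S100A8 and S100A13 have 3 listed starts each and so more chances of a match. The windows of the S100A8 starts overlap. Its TATAAA site, its GAGGAA site and 1 of its C/EBP sites are therefore each counted in more than 1 window. Members that did not pass, such as S100A4 and S100Z, carry TATAAA as well, and a match of letters is a description of the sequence and no evidence of binding.

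The windows of S100A9 (chr1:153357604-153357853, plus strand) and S100P (chr4:6693628-6693877, plus strand), 2 genes that rose from different chromosomes, are given whole. Capitals mark TATAAA, TTNNGNAA and GAGGAA on either strand.
S100A9: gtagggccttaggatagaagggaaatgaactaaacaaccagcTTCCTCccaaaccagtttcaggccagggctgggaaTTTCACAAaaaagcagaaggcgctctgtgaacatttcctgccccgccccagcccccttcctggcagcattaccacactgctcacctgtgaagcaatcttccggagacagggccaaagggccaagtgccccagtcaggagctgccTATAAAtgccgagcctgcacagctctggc
S100P: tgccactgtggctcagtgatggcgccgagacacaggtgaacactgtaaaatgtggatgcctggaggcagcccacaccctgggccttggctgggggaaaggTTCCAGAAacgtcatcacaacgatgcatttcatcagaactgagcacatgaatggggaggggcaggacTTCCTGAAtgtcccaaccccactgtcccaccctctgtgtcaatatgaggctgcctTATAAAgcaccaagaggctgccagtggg
In S100A9 the C/EBP letters start 173 bases and the PU.1 letters 208 bases before the transcription start. In S100P the C/EBP letters occur at 150 and 83 bases before it.

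S100A12 (chromosome 1, 153373711 to 153375621) encodes a RAGE ligand of granulocytes. It measured 3.55 and 3.82 in DMSO and 4.53 and 5.03 after MK-8776. The groups did not overlap, and both DMSO values were below the lower quartile of all values, where array signal is weakest. The difference of 1.10 (SE 0.24, 95% interval 0.53 to 1.66) fell just short of the threshold in limma (adjusted p = 0.0505). The call turned with the processing: it passed with median centring (0.0473), with a variance trend (0.0313) and with a robust trend (0.0324), and ranged to 0.419 (without DMSO replicate 2) over the other settings.

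S100A11 (chromosome 1, 152032506 to 152037004) encodes a widely expressed partner of annexin A1 that takes part in membrane repair. It measured 13.65 and 13.67 in DMSO and 14.81 and 14.82 after MK-8776. The arrays of each group were almost identical and the groups stood well apart. It rose by 1.16 (SE 0.20, 95% interval 0.69 to 1.62, limma adjusted p = 0.0234).

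S100A10 (chromosome 1, 151982915 to 151993859) encodes p11, which has lost calcium binding and forms a tetramer with annexin A2 at the plasma membrane. Its values were 11.19 and 11.31 in DMSO and 11.70 and 11.64 after MK-8776. The groups did not overlap, but the difference of 0.42 (SE 0.20, 95% interval -0.05 to 0.89) did not pass in limma (adjusted p = 0.318).

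S100P (chromosome 4, 6693878 to 6697170) encodes a family member that binds the membrane linker ezrin and was first found in placenta. The DMSO arrays gave 9.64 and 9.72 and the MK-8776 arrays 10.74 and 11.09. Both treated arrays lay above both controls. The means of 9.68 ± 0.06 and 10.92 ± 0.25 (SD, n = 2) differed by 1.24 (SE 0.22, 95% interval 0.73 to 1.74, limma adjusted p = 0.0247). The calls on S100P and S100A11 were lost in a test against a fold of 1.2 (adjusted p = 0.0574 and 0.0569) and without any single array, where p ran from 0.144 (MK-8776 replicate 2) to 0.387 (DMSO replicate 2) for S100P and from 0.129 to 0.371, for the same arrays, for S100A11.

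S100Z (chromosome 5, 76850014 to 76952953) encodes a little studied relative of S100P that can dimerise with it. It was the member with the lowest change: 7.14 and 6.80 in DMSO against 6.18 and 5.86 after MK-8776. Both treated arrays lay below both controls, opposite to S100P. The difference of -0.95 (SE 0.23, 95% interval -1.48 to -0.42) did not pass in limma (adjusted p = 0.0667), except when only genes above the median level were tested (0.0402). Over the other settings its adjusted p reached 0.405 (without DMSO replicate 2).

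The remaining 3 members overlapped between the groups. S100A4 (chromosome 1, 153543621 to 153545806), a binder of non-muscle myosin known for its link to metastasis, measured 11.29 and 11.35 in DMSO and 11.39 and 10.81 after MK-8776. The lowest and the highest of these came from the treated arrays. Its difference was -0.22 (SE 0.25, 95% interval -0.78 to 0.34, limma adjusted p = 0.704).

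S100A6 (chromosome 1, 153534599 to 153535991), also called calcyclin, binds the ubiquitin ligase adaptor CACYBP. It gave 5.83 and 6.63 in DMSO and 5.78 and 7.13 after MK-8776, so each group spanned most of the range. The difference of 0.23 had an SE of 0.43 and a 95% interval from -0.77 to 1.22 (limma adjusted p = 0.842), which does not exclude a rise of 2-fold.

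S100A13 (chromosome 1, 153618799 to 153634361) helps export FGF1 and interleukin 1 alpha, proteins without a signal peptide. Its values were 6.55 and 6.01 in DMSO and 6.43 and 6.52 after MK-8776. Both treated values fell between the controls. The difference was 0.20 (SE 0.24, 95% interval -0.36 to 0.75, limma adjusted p = 0.736).

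**Figure D2:**
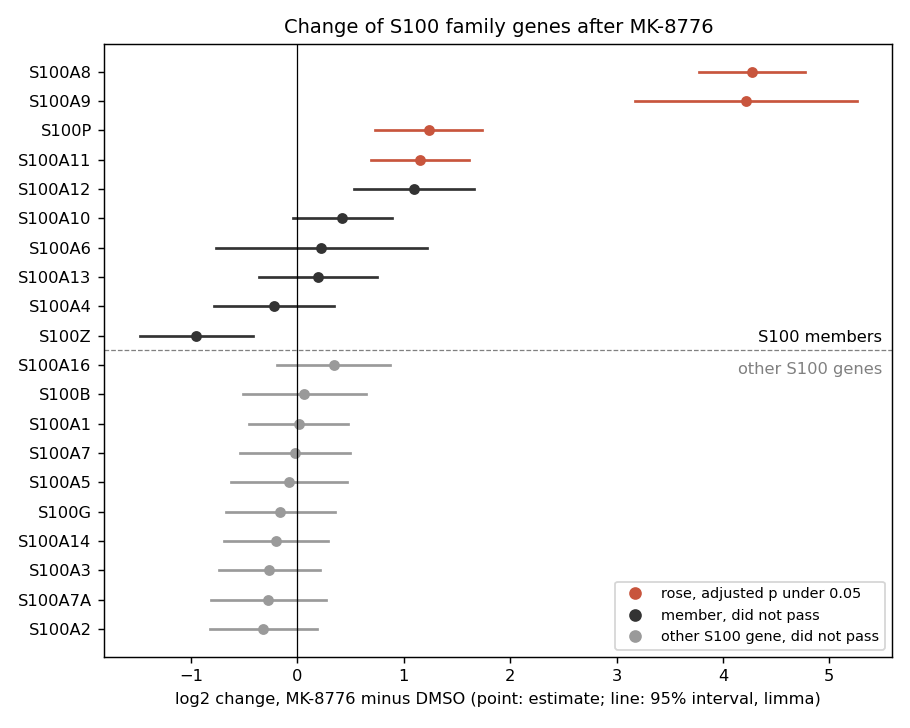
Log2 change, MK-8776 minus DMSO, of the 20 S100 family genes measured, with 95% intervals from limma. Red marks genes that rose, dark grey the other members and light grey the 10 further S100 genes, whose changes all lie between -0.32 and 0.34.

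The 10 further S100 genes on the array stayed close to 0. None rose or fell in limma, and 0 of them had an unadjusted p under 0.05 (3331 of all 17687 genes had). Their changes ran from -0.32 for S100A2 to 0.34 for S100A16, with a median of -0.12. For 5 of the 10 both group means lay below the lower quartile of all values, where a change would be hard to see on an array. S100A1, a calcium sensor of muscle, was the only one of the 10 above the median of all values (5.77), at 7.53 and 7.65 in DMSO and 7.60 and 7.60 after MK-8776.

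Positions along chromosome 1 are given beside the changes, and the part of position in them was not tested. The lower coordinate of S100A12 lies 15.9 kb and that of S100A8 32.2 kb from that of S100A9. S100A12, the nearer gene, changed less, but both its DMSO values (3.55 and 3.82) were below the lower quartile of all values (3.97). The nearest neighbours of the trio did not pass in limma. PGLYRP4, a peptidoglycan recognition protein gene beside S100A9, measured 4.18 and 4.40 in DMSO and 4.07 and 4.33 after MK-8776 (change -0.09, adjusted p = 0.879). S100A7A, on the other side, measured 4.07 and 3.66 in DMSO and 3.44 and 3.74 after MK-8776 (change -0.28, adjusted p = 0.607), and its gene model overlaps that of S100A8. With distances on the other side of S100A9 written as negative, S100A11, which rose, lies at -1325.3 kb and S100A10, which did not pass, at -1374.9 kb.

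**Figure D3:**
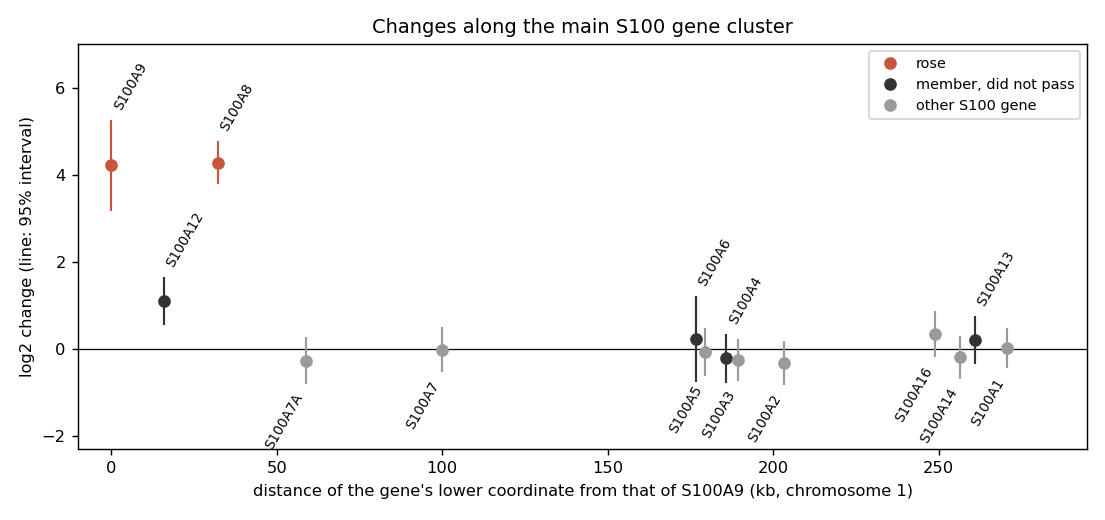
Log2 change with its 95% interval for the S100 genes on the S100A8 side of S100A9 on chromosome 1, against distance from S100A9 in kb. S100A9 and S100A8 stand above 4, S100A12 between them at 1.10, and the genes beyond 50 kb lie within 0.34 of 0.

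The genes with the course most like that of S100A8 were sought over the 4 arrays after centring each gene on its mean, with the Euclidean distance as the measure. The nearest were VNN2, a vanin of neutrophil membranes, at a distance of 0.127, and C5AR1, the receptor for the complement fragment C5a, at 0.183. CCL2 followed at 0.500, the formyl peptide receptor FPR2 at 0.531 and the water and glycerol channel AQP9 at 0.662. S100A9 came 8th, at 0.947. For S100A9 the nearest were CCL2 (0.897), C5AR1 (0.945), S100A8 (0.947), VNN2 (0.995) and NQO1, a quinone reductase (1.11). Over 4 arrays, a small distance mainly requires a rise of like size.

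Of the receptors and adaptors through which extracellular S100 proteins act, 3 of 13 (23.1%) rose in limma and 0 fell. The shares over all genes were 1.66% and 2.02%. The median change of this list was -0.03. CD36, a scavenger receptor that binds calprotectin with arachidonic acid, measured 5.45 and 4.94 in DMSO and 7.05 and 7.48 after MK-8776 and rose by 2.07 (SE 0.26, adjusted p = 0.00744). CD14, the co-receptor of TLR4, rose by 1.37 (SE 0.30, adjusted p = 0.0491), from 4.41 and 4.63 to 5.44 and 6.34. NPTN, neuroplastin, a receptor for S100A8, rose by 1.30 (SE 0.26, adjusted p = 0.0353), from 10.26 and 9.94 to 11.69 and 11.10. The receptors best known for this family did not pass. TLR4 measured 8.07 and 8.31 in DMSO and 8.87 and 8.90 after MK-8776 (change 0.70, adjusted p = 0.119), and AGER, which encodes RAGE, 5.54 and 5.69 against 5.24 and 5.63 (change -0.18, adjusted p = 0.739). The CD14 call was lost with quantile normalization, when all features of the array were tested and with a test against a fold of 1.2, with an adjusted p of up to 0.104 outside the fits that leave out an array. The NPTN call was lost in the test against that fold (adjusted p = 0.0806).

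Among intracellular partners 4 of 18 (22.2%) rose in limma and 0 fell, with a median change of 0.42. Beside this, 1.66% of all genes rose and 2.02% fell. The annexins that bind S100 proteins led the partners. ANXA5 rose by 2.36 (SE 0.30, adjusted p = 0.00785), from 9.59 and 9.77 to 12.48 and 11.59. ANXA2, the partner of S100A10, rose by 1.51 (SE 0.22, adjusted p = 0.0126), from 13.94 and 13.98 to 15.66 and 15.28. ANXA1, the partner of S100A11, rose by 1.05 (SE 0.22, adjusted p = 0.0437), from 11.48 and 11.43 to 12.71 and 12.30. SUGT1, a co-chaperone that binds S100A6, rose by 0.995 (SE 0.22, adjusted p = 0.0456). The ANXA1 and SUGT1 calls were lost in a test against a fold of 1.2 and when all features of the array were tested. ANXA6 and ANXA11 did not pass, with changes of -0.73 and -0.06. CACYBP, another partner of S100A6, changed by 0.39, EZR, which encodes ezrin, by 0.46 and MYH9, the heavy chain of non-muscle myosin, by 0.54, and these did not pass either.

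Calprotectin also carries arachidonic acid to the NADPH oxidase, the enzyme of the respiratory burst. Of its 5 measured subunits 2 (40%) rose in limma and 0 fell, with a median change of 0.83. For all genes the shares were 1.66% and 2.02%. NCF1 rose by 2.38 (SE 0.26, adjusted p = 0.00477), from 11.30 and 11.29 to 13.34 and 14.01, although near-identical pseudogene copies may share its probes. CYBB, the catalytic subunit, rose by 1.06 (SE 0.21, adjusted p = 0.0372), from 14.14 and 13.84 to 15.00 and 15.09. The CYBB call did not hold in a test against a fold of 1.2. RAC2, CYBA and NCF4 did not pass.

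Of 14 transcription factors known to act on S100A8 and S100A9, 1 (7.14%) rose in limma and 0 fell, with a median change of 0.22. Across all genes 1.66% rose and 2.02% fell. HIF1A, the oxygen-regulated factor, rose by 1.39 (SE 0.20, adjusted p = 0.0125), from 12.50 and 12.56 to 13.96 and 13.87. The C/EBP and PU.1 genes did not pass: CEBPB changed by 0.35, CEBPD by 0.19, CEBPA by -0.26, CEBPE by -0.35 and SPI1, which encodes PU.1, by 0.28. MYB changed by -0.885 and did not pass (limma adjusted p = 0.127). In direction 10 of the 14 were higher and 4 lower. With a variance trend, plain or robust, 1 factor of the list fell. These are transcript levels, and the activity of the factors was not measured.

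Of 8 genes that TLR4 and RAGE signalling can switch on, 5 (62.5%) rose in limma and 0 fell, with a median change of 1.65. Across all genes the shares were 1.66% and 2.02%. CCL2, the monocyte chemokine, rose by 4.22 (SE 0.28, adjusted p = 0.000649), close to both calprotectin genes in size. IL1B rose by 2.65 (SE 0.27, adjusted p = 0.00374), CXCL8 by 2.34 (SE 0.23, adjusted p = 0.00310) and CCL3 by 1.88 (SE 0.23, adjusted p = 0.00724). These genes were named for passing with the largest changes, and for each both MK-8776 arrays lay above both DMSO arrays (24% of all genes). PTGS2 was the other gene that rose, a call lost against a fold of 1.2. ICAM1 fell just short in limma (change 1.41, adjusted p = 0.0545), from 10.76 and 10.14 to 12.27 and 11.45. IL6 (change 0.475) and NFKBIA (0.445) did not pass either. Secreted protein was not measured, and these genes respond to other signals as well. Among the calls on genes of the lists outside the S100 family, those on CCL2 (adjusted p = 0.0306 without MK-8776 replicate 1 and 0.0419 without replicate 2) and ANXA5 (0.0419 without MK-8776 replicate 2) were the only ones to hold when an array was left out, and 0 held without a DMSO array.

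**Figure D4:**
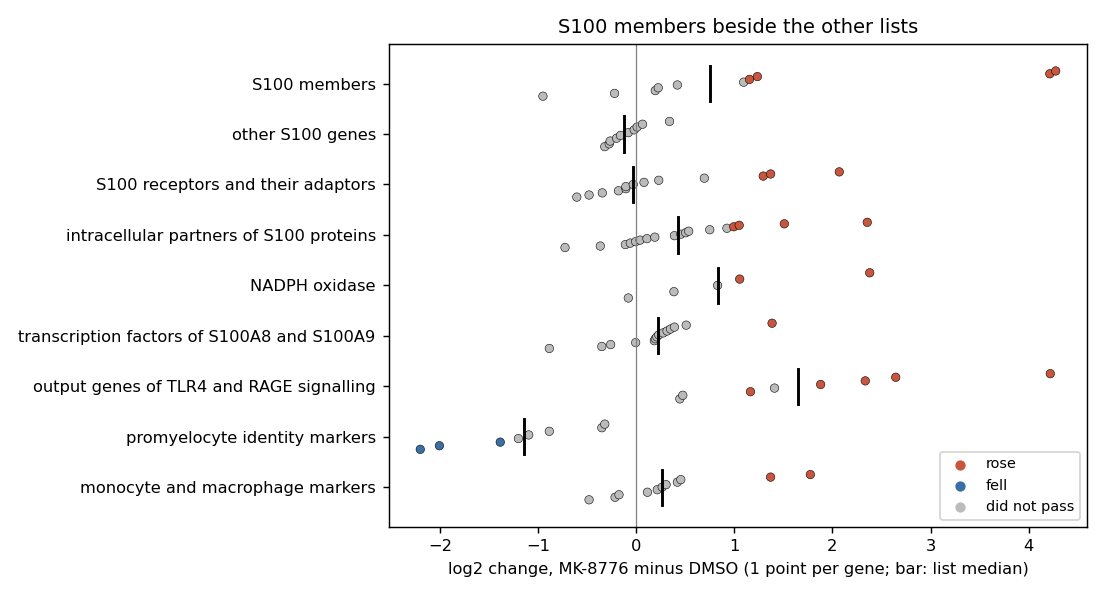
Log2 change of each gene in the S100 members, the further S100 genes, 5 lists of S100 biology and 2 marker lists. Each point is a gene, red where it rose and blue where it fell, and black bars are list medians, which run from -1.15 for promyelocyte markers to 1.65 for the output genes.

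Marker genes show what the cultures were while these members moved. The promyelocyte markers stood at uneven levels in DMSO. The granule enzyme gene MPO measured 16.09 and 16.27 there and 14.81 and 15.36 after MK-8776 (change -1.095, limma adjusted p = 0.0514). MYB measured 14.80 and 15.06 in DMSO and 13.69 and 14.40 after MK-8776 (change -0.885, limma adjusted p = 0.127). Neither passed. CTSG, PRSS57, PRTN3, AZU1 and CEBPE lay below the upper quartile of all values (9.21) on both DMSO arrays. KIT was below the lower quartile on every array. All 8 promyelocyte markers were lower after MK-8776, as were 8746 of all 17687 genes. In limma 3 of the 8 (37.5%) fell, beside 2.02% of all genes, and 0 rose, beside 1.66%. Those that fell changed by -2.20 for CTSG, -2.01 for PRTN3 and -1.39 for PRSS57 (limma adjusted p = 0.00516, 0.0193 and 0.0333). The list's mean level was 8.75 and 9.19 in DMSO and 7.52 and 8.06 after MK-8776. Of 11 monocyte and macrophage markers 2 (18.2%, beside 1.66% of all genes) rose, C1QA by 1.78 (limma adjusted p = 0.0164) and CD14. The CD14 call was lost in 4 of the 9 alternatives with all arrays. None fell, beside 2.02% of all genes. In direction 8 were higher and 3 lower: CD68 (change -0.48), VCAN (-0.215) and CSF1R (-0.175). The list's mean level was 5.31 and 5.42 in DMSO and 5.68 and 5.79 after MK-8776. FCGR3A, MRC1, MSR1 and VCAN of that list had both group means below the lower quartile of all values. The PRSS57 call was lost in a test against a fold of 1.2. The part of either shift in the S100 changes was not tested.

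Markers of some other lineages gave calls in both directions. In the lymphoid list 11.1% of genes rose and 11.1% fell, 1 gene each way. The shares were the same in the erythroid and megakaryocyte list. Over all genes 1.66% rose and 2.02% fell. Among the 9 lymphoid genes measured, NKG7 was up by 1.23 (limma adjusted p = 0.0320) and CD3E fell by 1.38 (adjusted p = 0.0264), and the mean level was 6.30 and 6.30 in DMSO and 6.28 and 6.22 after MK-8776. Both calls were lost against a fold of 1.2 (adjusted p = 0.0759 and 0.0574). The erythroid and megakaryocyte list had 9 measured genes, of which PPBP was up by 1.82 (adjusted p = 0.0235) and ITGA2B fell by 1.55 (adjusted p = 0.0120). That list's mean level was 5.16 and 5.30 in DMSO and 5.35 and 5.55 after MK-8776, with a median change of 0.24 beside 0.27 for the monocyte and macrophage list. None of the 7 marker genes of eosinophils, basophils and mast cells passed in limma (0 calls, 2 with an unadjusted p under 0.05), and the widest changes were -0.995 for EPX and 0.86 for TPSAB1.

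**Figure D5:**
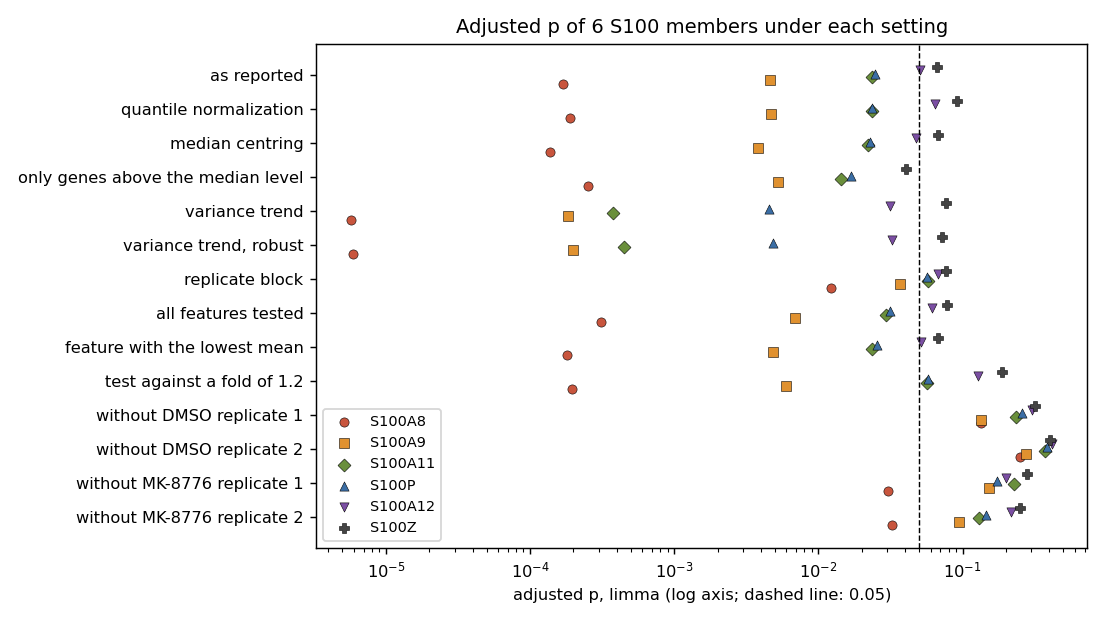
Adjusted p from limma, on a log axis, of 6 S100 members under each processing setting, with the threshold of 0.05 dashed. S100A8 and S100A9 lie left of the line in every setting that uses all 4 arrays, S100A11 and S100P lie right of it in 2 of those settings, and without 1 array S100A8 alone passes, when that array is from MK-8776.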

How the data were processed

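The 4 arrays measured total RNA of NB4-R4 cells. The deposited values are log2 expression per array feature, made by the authors with RMA and genome build hg38, per the submitters' processing notes. The log2 scale was read from the values (2.16 to 18.54, array medians 5.76 to 5.79). The sources used here give no RMA settings, and a variant on another scale would change the folds. RMA equalises the arrays, so changes are relative to the other genes. There are no detection calls, and the number of arrays limits the precision.

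Of 21448 features 17709 had 1 gene symbol, 0 several and 3739 none. All 17709 matched the RefSeq table (GRCh38.p14) by gene number. For 20 genes, none a member, the feature with the highest mean was kept. Correlation across genes was 0.993 within DMSO and within MK-8776 and 0.981 to 0.989 between groups. limma 3.58.1 in R 4.3.3 (lmFit, eBayes, two-sided, no filter) compared MK-8776 with DMSO, with 2 residual and 6.30 prior degrees of freedom and Benjamini-Hochberg adjustment over 17687 genes. The script was tested on simulated data. The labels tie replicate numbers to no shared culture or day.

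Named are all members, in each list up to 4 genes past the threshold with the largest change or else the 2 largest changes, the 5 genes nearest S100A8 and S100A9, and the neighbours of the calprotectin genes. Further list genes, and the promoter motifs, were chosen after their values were seen. CD14, CD68, CEBPE and MYB stand in more than 1 list. The members, lists and tests were chosen with earlier results of these data known. List genes without a single matching symbol were not analysed here. Promoters are RefSeq's, for GRCh38.p14. Alternatives were quantile normalization, median centring, a variance trend, plain or robust, testing only genes above the median level, a replicate block, all features, the feature with the lowest mean, a test against a fold of 1.2, and leaving out each array.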

Additional observations from a re-analysis of the deposited data

How the results depend on the processing

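With all 4 arrays, 4 or 5 members passed in 7 of the 9 alternatives, and each of the 10 members kept its direction wherever it was tested (S100A12 was not among the genes above the median level). In a test against a fold of 1.2, 2 members passed, as did 14 of the 108 genes of the other lists (23 as reported). The replicate block gave 2 members, S100A8 (adjusted p = 0.0123) and S100A9 (0.0369), with S100A11 at 0.0577 and S100P at 0.0562, and 13 genes of the other lists. The labels do not say whether same-numbered arrays share a culture or day. Deviations of same-numbered arrays correlated at 0.139 over 2 pairs, which cannot decide it. CD14, NPTN, ANXA1, SUGT1, CYBB, PTGS2, C1QA, NKG7, CD3E, PPBP and PRSS57 lost their call under the block.

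Leaving out 1 array left 0 to 1 members and 0 to 2 genes of the other lists past the threshold. The lone array of a group was then assumed to vary like the others. The difference between the changes of S100A8 and S100A9 ran from -0.585 to 0.705. Signs turned for S100A4 (range -0.51 to 0.07, positive without MK-8776 replicate 2), S100A6 (-0.45 to 0.90, negative without DMSO replicate 1 or MK-8776 replicate 2) and S100A13 (-0.075 to 0.465, negative without DMSO replicate 2). The cause was not tested.

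Over all genes 294 rose and 358 fell. The counts were 547 and 638 with a variance trend, 530 and 632 with a robust trend, 416 and 541 among genes above the median level, 133 and 176 with the block, 141 and 147 against a fold of 1.2, and 0 to 23 and 0 to 11 without 1 array. With 2 arrays a group, a change near 1 often does not pass, though the smallest change called was 0.925. In the simulated data, with 200 genes changed, 13.3% of log2 changes of 1 passed and 95.7% of those of 2. Fewer genes changed there than were called in the data, so these shares need not hold for the data.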
